A study of Homo sapiens with 30 samples.

Results

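CLK1, CLK2, CLK3 and CLK4 encode the CDC2-like kinases, and the description below follows their 4 gene rows, matched by symbol, out of 60664 genes in the count table. The data are 30 RNA-seq libraries, 3 for each of 10 groups, made from HEK293 cells, a human embryonic kidney line, in its Flp-In T-REx form. A pair of derivative lines carry a tetracycline-inducible GFP-tagged TIA1a, either wild type (WT) or in the form found in Welander distal myopathy (WDM). TIA1 is an RNA-binding protein that nucleates stress granules, the RNA and protein assemblies that form when translation stalls. Cytosol libraries came from WT and WDM cells that were untreated, given tetracycline, or given tetracycline and then 0.5 mM sodium arsenite for 60 min. Granule libraries came from WT and WDM cells given tetracycline with or without the same arsenite treatment, and their RNA was recovered from a high-speed pellet pulled down through the GFP tag. Cells of every group, the untreated ones included, carry the transgene. Libraries of the parental line without it were not analysed here, so an effect of tetracycline and an effect of the induced protein cannot be told apart. There were no untreated granule libraries among those analysed, and the tetracycline dose and time are not given in the sources used here. The lines express the transgene from an inducible promoter in kidney-derived cells, and the labels do not say whether each line is 1 clone. The labels do not say that replicates came from separate cultures, so p-values measure only the spread between these libraries, which may be technical.

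CLKs are dual-specificity kinases of the nucleus. They phosphorylate serine and arginine-rich splicing factors (SR proteins), which releases those factors from nuclear speckles and changes splice site choice. The CLK genes, CLK1 and CLK4 above all, are known for regulating their own output. Many of their transcripts keep the introns on either side of exon 4 and stay in the nucleus as a reserve. That reserve can be spliced when kinase activity falls. Transcripts that skip exon 4 encode a short form without the kinase domain. The counts used here are totals per gene and do not separate spliced from intron-keeping or exon-skipping transcripts.

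Exon 4 of the canonical transcripts is shown because the described switch between productive and nuclear transcripts turns on it. Each sequence is the transcribed strand of GRCh38, read 5′ to 3′, with exon 4 in capitals and 20 bases of intron 3 and intron 4 on its sides in lower case. The stretches are chr2:200860105-200860235 (minus strand) for CLK1, chr1:155268688-155268815 (minus strand) for CLK2, chr15:74622100-74622236 (plus strand) for CLK3 and chr5:178617324-178617454 (minus strand) for CLK4.
CLK1: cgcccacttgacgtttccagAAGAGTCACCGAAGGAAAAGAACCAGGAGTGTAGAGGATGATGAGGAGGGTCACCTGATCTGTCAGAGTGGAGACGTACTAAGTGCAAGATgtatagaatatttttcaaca
CLK2: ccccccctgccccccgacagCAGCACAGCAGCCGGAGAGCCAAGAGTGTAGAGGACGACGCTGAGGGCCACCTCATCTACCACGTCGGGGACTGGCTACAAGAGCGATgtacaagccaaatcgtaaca
CLK3: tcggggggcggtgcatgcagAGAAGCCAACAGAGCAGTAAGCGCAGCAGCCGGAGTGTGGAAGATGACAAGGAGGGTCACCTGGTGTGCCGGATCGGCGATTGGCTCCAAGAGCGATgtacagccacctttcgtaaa
CLK4: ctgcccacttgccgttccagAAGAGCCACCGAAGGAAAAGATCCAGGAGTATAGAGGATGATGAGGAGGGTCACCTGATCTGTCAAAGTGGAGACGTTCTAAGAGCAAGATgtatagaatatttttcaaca
The exon is 91 bases long in CLK1 and CLK4, 88 in CLK2 and 97 in CLK3, and no length is a multiple of 3, so its loss shifts the reading frame. CLK1 and CLK4 are 93.4% identical over exon 4 and share all 20 bases after it. Compared position by position without gaps, 11 of the 20 bases before it match. A shifted or gapped match of these 20 bases was not counted. The other pairs are 61.5% to 68.2% identical over the aligned exon. Exons 5 to 12, which follow the switch, have the same 8 lengths in all 4 genes, and over them CLK1 and CLK4 are 79.3% identical, CLK2 and CLK3 73.4%, and the remaining pairs 62.9% to 68.0%.

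Gene positions below are those deposited with the counts, and transcript numbers, classes, exons and introns are those of GENCODE v44. CLK1 (ENSG00000013441, 14 transcripts) lies at chr2:200853009-200864744 and CLK2 (ENSG00000176444, 7 transcripts) at chr1:155262868-155278491. CLK3 (ENSG00000179335, 27 transcripts) lies at chr15:74598500-74645414 and CLK4 (ENSG00000113240, 13 transcripts) at chr5:178602664-178630615. Transcripts of the retained-intron class number 8 for CLK1, 0 for CLK2, 8 for CLK3 and 7 for CLK4. Intron 3 is 1022, 692, 1894 and 1121 bases long in CLK1 to CLK4, and intron 4 is 378, 348, 277 and 395 bases long. Every base of both introns is covered by an annotated exon of some transcript in all 4 genes. Reads from these introns are therefore part of the gene totals if the counter used the exons of all transcripts, which the sources used here do not state. No base of the canonical exons lies in an exon of another gene. Of the 50-base windows of the canonical transcripts, none in CLK1 or CLK4 recurs in another annotated gene. In CLK2 6.13% recur in the pseudogene CLK2P1, which had at most 4 counts in a library, and in CLK3 3.32% recur in ENSG00000276667, which had at most 1.

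**Figure D1:**
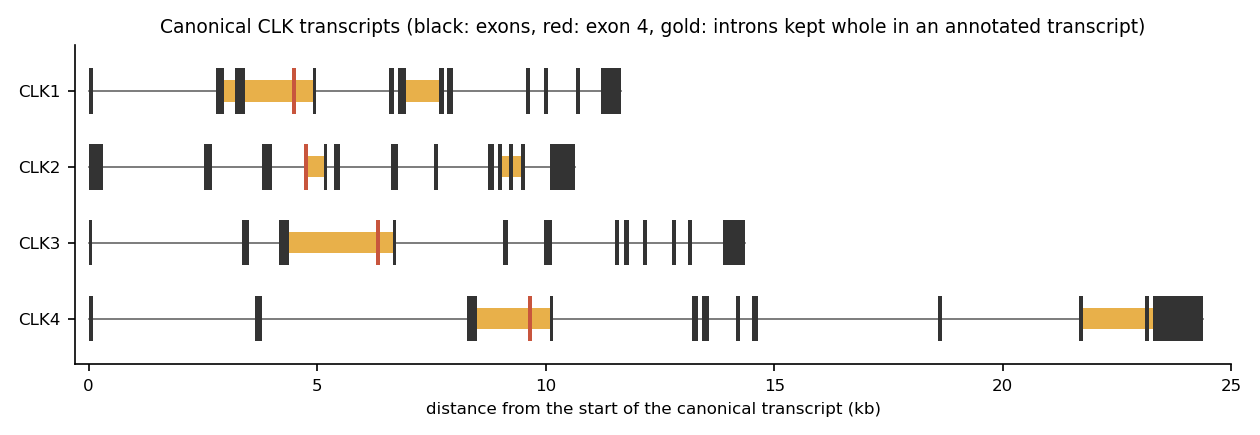
Exons of the canonical CLK transcripts against distance from the transcript start in kb, with exon 4 in red and, in gold, the introns that an annotated GENCODE v44 transcript keeps whole. The 13 exons keep their order in all 4 genes, and gold stretches lie on 1 or both sides of exon 4 in each gene. Gold stretches away from exon 4 are introns 2 and 7 of CLK1, 10 and 11 of CLK2, and 11 and 12 of CLK4.

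Total counts per library ran from 5906167 to 27419145, and each CLK gene had at least 221 counts in every library. TIA1 itself had 3 counts over the 30 libraries, so induction of the transgene could not be checked from these counts. Of 6 genes listed for HEK293 cells, KRT8, KRT18 and EPCAM exceeded 1 CPM in all 30 libraries, PAX2 in 29 and LHX1 in 28, while the neuronal gene NEFM reached at most 6 counts. Of the genes of other cell types, PTPRC reached 4 counts at most, COL1A2 2 and PECAM1 13, and COL1A1 lay between 1.15 and 5.90 CPM. Nuclear long noncoding RNAs (NEAT1, MALAT1 and KCNQ1OT1, with MEG3 at 0 to 2 counts) summed to 220 to 794 CPM in cytosol libraries and to 2200 to 3586 CPM in granule libraries. All CPM values, those above included, are counts over the library total times its TMM factor, times 10 to the power of 6. These factors were computed over all 30 libraries and align libraries at the bulk of their genes. Each fit used TMM factors of its own libraries, so fold changes can differ from ratios of the printed CPM. Tests are edgeR's quasi-likelihood test with Benjamini-Hochberg adjustment over all genes, and called genes are those whose adjusted p was below 0.05. Whether the 3 libraries of 1 group overlap those of another is given only as a description. The share of all genes whose groups do not overlap was not counted. In bulk RNA, a change in some of the cells and a smaller change in all of them cannot be told apart.

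All 4 CLK genes were expressed in every library. Over the 30 libraries CLK1 ranged from 27.0 to 83.9 CPM, CLK2 from 28.5 to 69.0, CLK3 from 33.1 to 71.5 and CLK4 from 18.3 to 57.0. Divided by the length of the canonical transcript, the untreated WT means were 32.1 CPM per kb for CLK3, 27.1 for CLK1, 19.5 for CLK2 and 13.5 for CLK4. That order, CLK3 above CLK1 above CLK2 above CLK4, held in all 6 untreated libraries. The order depends on the length used. Per kb of all annotated exons the same means were 11.5 for CLK2, 9.80 for CLK1, 4.28 for CLK4 and 3.02 for CLK3, because CLK3 has 19697 bases of annotated exon and CLK1 5117, CLK2 3658 and CLK4 7922.

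**Figure D2:**
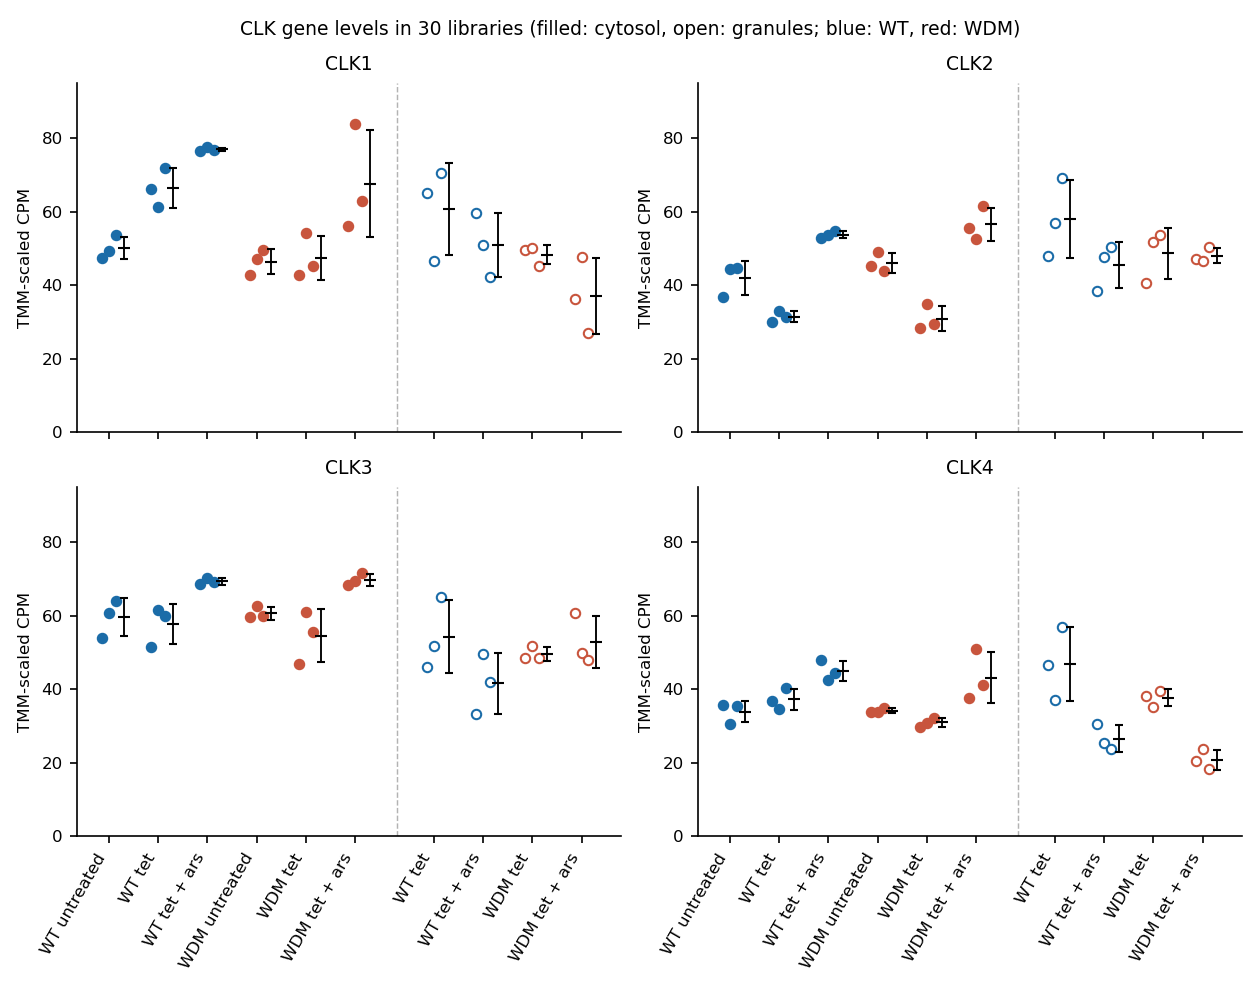
TMM-scaled CPM of the 4 CLK genes in each of the 30 libraries, by line and treatment, with the mean ± SD of 3 libraries beside each group; filled points are cytosol, open points granules, blue WT and red WDM. CLK2 is lowest in the cytosol of tetracycline-treated cells (28.5 to 34.9 CPM), and CLK4 is lowest in granules of arsenite-treated cells (18.3 to 30.7 CPM).

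Tetracycline alone lowered CLK2 in the cytosol of both lines and changed no other CLK gene past the test. CLK2 stood at 36.8, 44.5 and 44.8 CPM in untreated WT cytosol and at 30.0, 32.9 and 31.4 with tetracycline. In WDM cytosol the untreated libraries had 45.3, 49.1 and 43.9 CPM and the tetracycline libraries 28.5, 34.9 and 29.4. In both lines every tetracycline library lay below every untreated one. The log2 fold change of CLK2 was -0.43 (SE 0.0983, edgeR adjusted p = 0.0169) in WT and -0.58 (SE 0.0974, adjusted p = 0.00168) in WDM, or 0.742 and 0.668 of the untreated level. This was 1 of 4 CLK genes called in each line, against 5.31% of all genes in WT and 6.3% in WDM. The WT call was lost in a fit of the compared groups alone (adjusted p = 0.0749) and in 3 of 6 fits that left out a library, those without untreated replicate 2 or 3 or tetracycline replicate 3, with adjusted p from 0.00455 to 0.0848 over all alternatives.

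CLK1, the best studied of the kinases, did not share this response. Its untreated WT libraries had 47.5, 49.3 and 53.5 CPM and its tetracycline libraries 66.1, 61.3 and 72.0, so the groups did not overlap, but the log2 fold change of 0.40 (SE 0.121) missed the threshold (adjusted p = 0.0588). That value lay between 0.00844 and 0.221 over the alternatives, and the threshold was passed without a low-count filter, with DESeq2 and with the replicate number as a block. The WDM cytosol had 42.7, 47.0 and 49.5 CPM untreated and 42.9, 54.1 and 45.2 with tetracycline, which overlap (log2 fold change 0.03, adjusted p = 0.939). CLK3, with log2 fold changes of -0.06 and -0.16 in WT and WDM, and CLK4, with 0.13 and -0.15, were not called either.

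The ratio of CLK1 to CLK2 inside a library, which does not depend on how libraries are scaled, shows the same contrast. The log2 ratio per kb lay between 0.37 and 0.59 in untreated WT cytosol and between 1.12 and 1.42 with tetracycline. In WDM cytosol it lay between 0.14 and 0.39 untreated and between 0.81 and 0.85 with tetracycline. In neither line did the groups overlap, and with tetracycline every WT library exceeded every WDM library. In 2 WT tetracycline libraries, replicates 1 and 3, CLK2 fell below CLK4 in the order per kb and became the lowest of the 4.

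Arsenite raised all 4 CLK genes in WDM cytosol and CLK2 and CLK3 in WT cytosol, and the values of CLK2 were the largest in both lines. CLK2, at 30.0 to 32.9 CPM in WT cytosol before arsenite, had 52.8, 53.6 and 54.8 CPM after it. In WDM cytosol it went from 28.5 to 34.9 CPM before arsenite to 55.7, 52.6 and 61.5 after it. Every arsenite library lay above every tetracycline library. The log2 fold changes were 0.76 (SE 0.0966, adjusted p = 2.47e-05) in WT and 0.87 (SE 0.0966, adjusted p = 9.51e-06) in WDM, or 1.70-fold and 1.83-fold, and both calls were kept in all 12 alternatives. Among all genes tested, these values stood at the 91.2 and 94.0 percentile. Against untreated cells the rise of CLK2 was smaller, 0.33 on the log2 scale in WT (adjusted p = 0.0127) and 0.29 in WDM (adjusted p = 0.0198). The rises over tetracycline and over untreated cells share their arsenite libraries. The rise over tetracycline also shares its tetracycline libraries with the fall described above, so the fall and the rise are not separate results. The WT call was lost without untreated replicate 1, and the WDM call was lost without untreated replicate 1 or 3 or arsenite replicate 3 and without the low-count filter, with adjusted p up to 0.0862 and 0.0825.

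CLK1 had 76.4, 77.5 and 76.9 CPM in arsenite-treated WT cytosol and 56.1, 83.9 and 62.8 in arsenite-treated WDM cytosol. Replicate 2 stands above the other WDM libraries. Against tetracycline alone the log2 fold change was 0.20 in WT (adjusted p = 0.209), not called, and 0.51 in WDM (SE 0.119, adjusted p = 0.00415). Without WDM arsenite replicate 2 the WDM value was 0.32, called at an adjusted p of 0.0279. Against untreated cells CLK1 rose by a log2 fold change of 0.59 in WT (adjusted p = 0.00109) and of 0.54 in WDM (adjusted p = 0.00155), and both calls were kept in all alternatives. Without WDM arsenite replicate 2 the second value was 0.35.

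CLK3, the highest of the kinases per kb of canonical transcript in untreated cells, rose in both lines. It had 51.5, 61.6 and 59.9 CPM with tetracycline and 68.5, 70.3 and 69.1 with arsenite in WT cytosol. In WDM cytosol it had 46.8, 61.1 and 55.5 CPM with tetracycline and 68.2, 69.5 and 71.5 with arsenite. The arsenite libraries of both lines lay above all tetracycline libraries and close to each other. The log2 fold change was 0.25 in WT (SE 0.0936, adjusted p = 0.0473) and 0.35 in WDM (SE 0.0936, adjusted p = 0.00912). The WT call was lost whichever of the 6 libraries was left out, with adjusted p from 0.0535 to 0.151. Against untreated cells CLK3 was not called in either line (0.20 in WT and 0.19 in WDM, adjusted p = 0.117 and 0.101).

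CLK4, the nearest relative of CLK1, had 36.8, 34.7 and 40.3 CPM with tetracycline and 47.8, 42.5 and 44.4 with arsenite in WT cytosol. In WDM cytosol it had 29.6, 30.9 and 32.3 CPM with tetracycline and 37.5, 50.8 and 41.2 with arsenite. The groups did not overlap in either line, and WDM arsenite replicate 2 was again the highest. The log2 fold change was 0.26 in WT (SE 0.103, adjusted p = 0.0661), not called, and 0.48 in WDM (SE 0.104, adjusted p = 0.0025), which was 0.34 without that replicate (adjusted p = 0.016). Against untreated cells, at 30.6 to 35.6 CPM in both lines, CLK4 rose by 0.38 on the log2 scale in WT (adjusted p = 0.0093) and by 0.33 in WDM (adjusted p = 0.0148). The WT call was lost without untreated replicate 2 (adjusted p = 0.0637) and the WDM call without arsenite replicate 2 (0.20, adjusted p = 0.114).

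Counted together, arsenite raised 2 of 4 CLK genes over tetracycline in WT cytosol and 4 of 4 in WDM cytosol. Of all genes, 29% and 28.8% were called there in either direction, and 13.7% and 14.1% were higher. Over untreated cells arsenite raised 3 of 4 in each line. There 32.3% of genes were called in either direction in WT and 39.1% in WDM, and 15.2% and 19.1% were higher. The WDM calls of CLK1 and CLK3 over tetracycline were lost in a fit of only the compared groups (adjusted p = 0.0515 and 0.0689, the highest values of their alternatives), which leaves 2 of 4. Scaling by library size alone moved the median of all genes from -0.02 to 0.11 in the WT comparison and raised the share of calls that were higher from 47.2% to 76.5%, and in WDM from 48.8% to 66.6%. It moved that share from 47.1% to 64.3% for arsenite over untreated WT cytosol, from 55.1% to 44.1% for tetracycline over untreated WT cytosol and from 51.7% to 66.0% for WDM over WT granules with arsenite. Under that scaling all 4 CLK genes were called in WT. Relative to the median of all genes, a distance that rescaling leaves in place by construction, CLK1 lay 0.22 higher, CLK2 0.78, CLK3 0.27 and CLK4 0.28 in WT. Nuclear long noncoding RNAs summed to 220 to 517 CPM in WT cytosol with tetracycline and to 521 to 567 with arsenite. In WDM they summed to 341 to 667 and 546 to 794. The 517 was WT replicate 1, with replicates 2 and 3 at 226 and 220. Of the 3 tested, arsenite raised 2 in WT and 1 in WDM and lowered 0. Of 8 abundant cytoplasmic mRNAs, such as ACTB and GAPDH, it raised 0 and lowered 3 in WT and 4 in WDM. With a library left out, 0 to 7 of the 8 were called in each line. Of all genes, 15.3% and 14.8% were lower. The part of either list in the rise of the CLK genes was not tested.

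**Figure D3:**
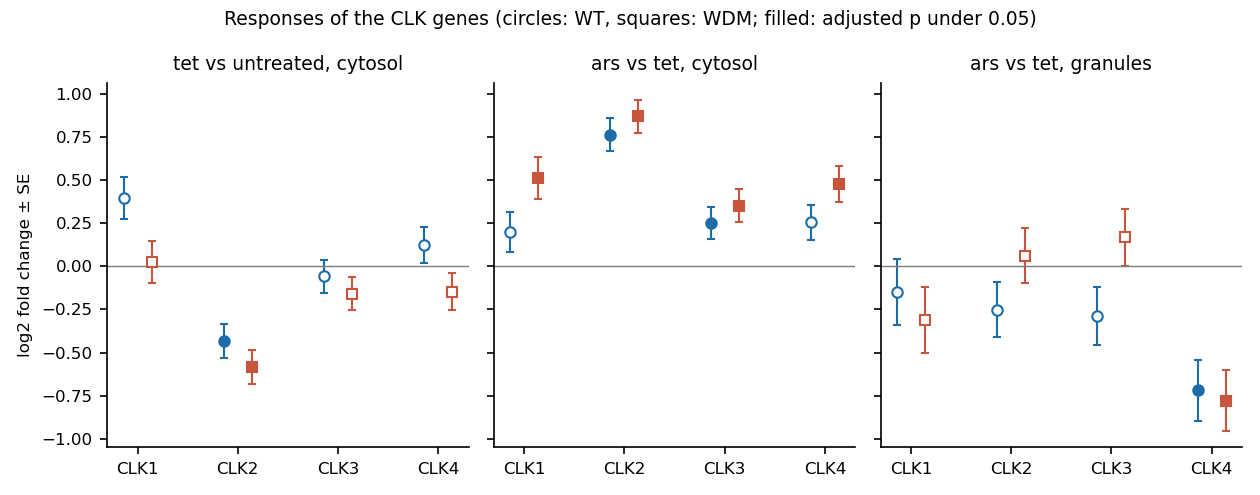
Log2 fold change ± SE of each CLK gene for tetracycline over untreated cytosol, arsenite over tetracycline in cytosol and arsenite over tetracycline in granules; circles are WT, squares WDM, and filled symbols passed an adjusted p of 0.05. CLK2 falls with tetracycline and rises by 0.76 and 0.87 with arsenite in cytosol, and CLK4 alone falls past the threshold in granules, by 0.72 and 0.78.

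Between the lines, CLK1 under tetracycline was the 1 CLK gene called in the 5 comparisons of WDM with WT. With tetracycline CLK1 lay between 61.3 and 72.0 CPM in WT cytosol and between 42.9 and 54.1 in WDM cytosol. The groups did not overlap, and the log2 fold change of WDM over WT was -0.48 (SE 0.1203, adjusted p = 0.0103). This was 1 of 4 CLK genes, where 12.6% of all genes were called. The call was lost in 3 of 6 fits that left out a library, those without WT replicate 3 or WDM replicate 1 or 3, with adjusted p from 0.000488 to 0.0634 over all alternatives. CLK4 pointed the same way without being called (-0.26, adjusted p = 0.114), its WDM libraries all below its WT libraries.

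Before induction 0 of 4 CLK genes were called between the lines by edgeR or DESeq2, and 0 had an unadjusted p under 0.05, while 9.78% of all genes were called. With arsenite in cytosol the count was likewise 0 by both tools and 0 at an unadjusted p under 0.05, where 10.4% of all genes were called. Without WDM arsenite replicate 2, CLK1 was called lower in WDM there (-0.36, adjusted p = 0.0245). The difference between the lines in the tetracycline response of CLK1 was -0.37 (SE 0.171) and was not called. For that difference 0 of 4 CLK genes were called by edgeR or DESeq2, CLK1 being the 1 gene with an unadjusted p under 0.05, and 0.018% of all genes were called. For the difference in the arsenite response 0 of 4 were called by either tool, 0 at an unadjusted p under 0.05, and 0% of all genes. Whether the lines respond differently was therefore not detectable here, although the calls listed for each line differ.

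In the granule fraction CLK4 was the CLK gene that arsenite changed. CLK4 had 46.7, 36.9 and 57.0 CPM in WT granules with tetracycline and 30.7, 25.3 and 23.6 with arsenite. In WDM granules it had 38.2, 35.1 and 39.6 CPM with tetracycline and 20.4, 23.8 and 18.3 with arsenite. Each of the 6 arsenite libraries, at 18.3 to 30.7 CPM, lay below each of the 6 tetracycline libraries, at 35.1 to 57.0. The log2 fold change was -0.72 in WT (SE 0.175, adjusted p = 0.003) and -0.78 in WDM (SE 0.176, adjusted p = 0.00116), or 0.607 and 0.583 of the tetracycline level. Both calls were kept in all 12 alternatives. This was 1 of 4 CLK genes in each line, where 30.6% of all genes were called in WT and 36.3% in WDM.

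The other members did not pass the test in granules. CLK1 had 65.2, 46.5 and 70.5 CPM in WT granules with tetracycline and 59.6, 51.0 and 42.3 with arsenite. In WDM granules it had 49.5, 50.1 and 45.3 CPM with tetracycline and 36.4, 47.8 and 27.0 with arsenite. The ranges overlap in both lines (log2 fold change -0.15 and -0.31, adjusted p = 0.582 and 0.214), and without WDM arsenite replicate 2 the WDM value was -0.53 and just passed (adjusted p = 0.0486). CLK2, at 48.0, 56.9 and 69.0 CPM in WT granules with tetracycline, had 38.5, 47.7 and 50.4 with arsenite (-0.25, adjusted p = 0.242). In WDM granules it had 40.6, 51.7 and 53.7 CPM with tetracycline and 47.3, 46.7 and 50.3 with arsenite (0.06, adjusted p = 0.795). These groups overlap too. CLK3 had 46.0, 51.7 and 65.2 CPM in WT granules with tetracycline and 33.1, 49.7 and 41.9 with arsenite (-0.29, adjusted p = 0.189). In WDM granules it had 48.4, 51.9 and 48.3 CPM with tetracycline and 60.8, 49.8 and 47.9 with arsenite (0.17, adjusted p = 0.449). Again the groups overlap, and the WT and WDM values of CLK3 have opposite signs.

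Inside each granule library CLK4 moved away from CLK1. The log2 ratio of CLK1 to CLK4 per kb lay between 0.75 and 0.92 in WT granules with tetracycline and between 1.28 and 1.45 with arsenite. In WDM granules it lay between 0.63 and 0.95 and between 1.00 and 1.45. The groups do not overlap in either line. The log2 ratio of CLK4 to CLK3 went from between -0.995 and -0.72 to between -2.01 and -1.50 in WDM granules, whereas in WT granules the ranges, -0.92 to -0.41 and -1.41 to -0.54, overlap. In cytosol the CLK1 to CLK4 ratio with arsenite, 1.12 to 1.31 in WT, overlapped that with tetracycline, 1.26 to 1.28.

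No CLK gene was called between the lines in granules. With tetracycline 0 of 4 were called by edgeR or DESeq2 and 0 had an unadjusted p under 0.05, where 5.55% of all genes were called. With arsenite 0 of 4 were called by either tool, 2 (CLK1 at -0.49 and CLK4 at -0.38) had an unadjusted p under 0.05, and 7.95% of all genes were called. Without WDM arsenite replicate 2, CLK1 was called there (-0.71, adjusted p = 0.0313). The arsenite response in granules differed between the lines for 0 of 4 CLK genes by either tool, 0 at an unadjusted p under 0.05, and for 0% of all genes.

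Set against the cytosol of the same line and treatment, CLK2 was enriched in the granule fraction before arsenite and no CLK gene was enriched after it. With tetracycline alone the log2 ratio of granules to cytosol was 0.88 for CLK2 in WT (SE 0.139, adjusted p = 1.74e-06) and 0.62 in WDM (SE 0.139, adjusted p = 0.000234). All 3 granule libraries of each line exceeded the cytosol libraries. These cytosol libraries are the ones in which CLK2 was low with tetracycline, so the ratio is not separate from that fall. Mean CLK2 was 58.0 CPM in WT and 48.7 in WDM granules with tetracycline. In untreated cytosol it was 42.0 and 46.1, a difference that was not tested. CLK1 (-0.14 in WT and -0.01 in WDM) and CLK3 (-0.09 and -0.17) lay near the cytosol level, and their groups overlap. CLK4 had ratios of 0.32 and 0.25 that missed the threshold (adjusted p = 0.0529 and 0.144), and the WT value moved with 1 library: without granule replicate 2, whose CLK4 level was the lowest of its group, it was 0.47 (adjusted p = 0.00838), and scaling by library size alone also called it (0.36, adjusted p = 0.0259). The count was 1 of 4 CLK genes in each line, where 75.7% of all genes were called in WT and 71.1% in WDM. The ratio of CLK2 stood at the 68.0 and 66.3 percentile of all genes.

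With arsenite the ratios of all 4 CLK genes were below 0. CLK4 had -0.76 in WT (SE 0.149, adjusted p = 4.89e-05) and -1.09 in WDM (SE 0.150, adjusted p = 2.48e-07), the lowest of the family in each line. CLK1 had -0.60 (SE 0.175, adjusted p = 0.00345) and -0.91 (SE 0.176, adjusted p = 4.37e-05), and CLK3 -0.74 (SE 0.142, adjusted p = 3.77e-05) and -0.44 (SE 0.141, adjusted p = 0.00658). For all 4 genes every granule library lay below every cytosol library, but how many of all genes have such separate groups was not counted. CLK2 had -0.24 and -0.27 and was not called (adjusted p = 0.109 and 0.0681). In the WDM comparison same-numbered libraries deviated together. A fit with the replicate number as a block called CLK2 there at -0.27 (adjusted p = 0.0384). That block is common to the 24 libraries of the fit, so it does not model the pairing of the WDM arsenite libraries alone. The count was 3 of 4 lower in each line. Of all genes, 70.5% were called in either direction in WT and 72% in WDM, and 35.5% and 35.7% were lower. The median of all genes was 0.05 and 0.06. The WDM call of CLK3 was lost without the low-count filter (-0.35, adjusted p = 0.062).

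**Figure D4:**
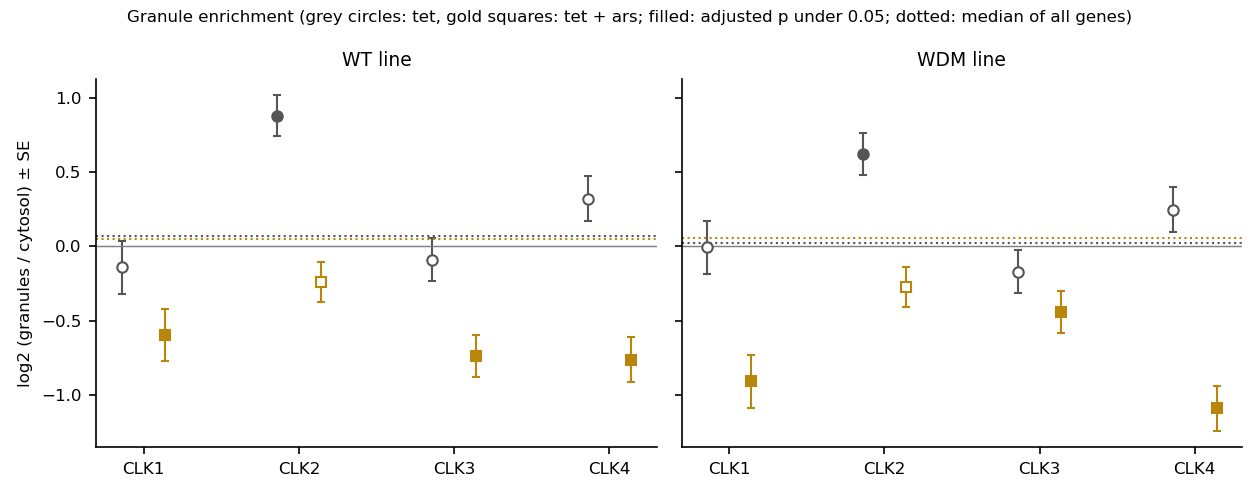
Log2 ratio of granules to cytosol ± SE for each CLK gene, with tetracycline (grey circles) and with tetracycline and arsenite (gold squares), in WT on the left and WDM on the right; dotted lines are the medians of all genes and filled symbols passed an adjusted p of 0.05. CLK2 drops from 0.88 and 0.62 to -0.24 and -0.27, and CLK4 from 0.32 and 0.25 to -0.76 and -1.09.

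The change of this ratio with arsenite was tested directly. It was -1.12 for CLK2 (SE 0.194, adjusted p = 0.000117) and -1.09 for CLK4 (SE 0.212, adjusted p = 0.00039) in WT, and -0.90 (SE 0.193, adjusted p = 0.00141) and -1.34 (SE 0.213, adjusted p = 0.000112) in WDM. These 4 calls were kept in all 18 alternatives. CLK2 had been called higher with arsenite in cytosol of both lines and was not called in granules, whereas CLK4 had been called lower in granules of both lines and higher in WDM cytosol; these comparisons share their libraries with the change of the ratio. CLK3 was called in WT (-0.65, adjusted p = 0.0146) and not in WDM (-0.27, adjusted p = 0.353), and CLK1 in WDM (-0.90, adjusted p = 0.00933) and not in WT (-0.46, adjusted p = 0.163). The WT call of CLK3 was lost without granule tetracycline replicate 3, without granule arsenite replicate 1 and without the low-count filter, with adjusted p up to 0.209. The WDM call of CLK1 was lost without cytosol arsenite replicate 2 (-0.68, adjusted p = 0.0512). The count was 3 of 4 lower in each line. Of all genes, 31.4% were called in either direction in WT and 24.1% in WDM, and 19.4% and 16.5% were lower. The median of all genes was -0.21 and -0.17. CLK4 in WDM stood at the 5.55 percentile of all genes, and CLK2 and CLK4 in WT at the 14.2 and 15.1 percentile. The enrichment itself differed between the lines for 0 of 4 CLK genes by edgeR or DESeq2 and 0 at an unadjusted p under 0.05, both with tetracycline and with arsenite, and for 0.00551% of all genes in each.

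The composition of the granule fraction moved at the same time. The mRNAs of ACTB, GAPDH, EEF1A1 and TPT1 summed to 2058 to 2776 CPM in WT granules with tetracycline and to 1214 to 1442 with arsenite, and in WDM granules to 1999 to 3281 and 1095 to 1331. The nuclear long noncoding RNAs summed to 2616 to 3586 and 2723 to 2779 CPM in WT granules, and to 2394 to 2826 and 2200 to 2965 in WDM granules, ranges that overlap. MALAT1, a speckle RNA, fell in granules with arsenite in both lines (-0.82 in WT, adjusted p = 0.00136, and -0.62 in WDM, adjusted p = 0.00857). The WDM call was lost without WDM arsenite replicate 2. NEAT1, the paraspeckle scaffold, was not called (0.21 and 0.38), nor was KCNQ1OT1. The part of these RNAs in the CLK values was not tested.

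Other transcripts described with introns kept in the nucleus were read as a list of 12 genes, all of them tested. In cytosol arsenite raised 7 of 12 in WT and 7 of 12 in WDM and lowered 0 in either, where 13.7% and 14.1% of all genes rose. The list's median log2 fold change was 0.33 in WT and 0.32 in WDM, against -0.02 and -0.00 for all genes. The gene that moved most was CCNL1, a cyclin that binds splicing kinases of the CDK11 family, from 48.8 to 116 CPM in WT (1.24, adjusted p = 6.50e-09) and from 46.1 to 113 CPM in WDM (1.29, adjusted p = 3.58e-09). NXF1, the mRNA export receptor, rose by 0.41 and 0.62 on the log2 scale, RSRC2, an arginine and serine-rich protein, by 0.51 and 0.62, and CCNL2, the relative of CCNL1, by 0.45 and 0.34. ARGLU1 and PNISR, arginine-rich nuclear proteins, were not called in cytosol (0.19 and 0.03, and -0.02 and -0.06). Over the alternatives between 4 and 10 of the 12 were called in WT, with 4 without tetracycline replicate 2, and between 3 and 8 in WDM, with 3 in a fit of the compared groups alone.

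In granules, where CLK4 fell, arsenite lowered 5 of 12 in WT and 5 of 12 in WDM and raised 1 and 2, where 14.1% and 17.7% of all genes fell. ARGLU1 (-0.99 and -1.07), NKTR, a cyclophilin with an SR-rich tail (-0.98 and -0.91), PNISR (-0.97 and -0.98) and LUC7L3, a U1 snRNP-associated factor (-0.71 and -0.78), fell in both lines. CCNL2 fell in WT (-0.72, adjusted p = 0.00118), and OGT, the O-GlcNAc transferase, fell in WDM (-0.65, adjusted p = 0.00198). NXF1 rose in WDM (0.88, adjusted p = 0.000444), and MAT2A rose in WT (0.47, adjusted p = 0.035). Against cytosol, 8 of 12 were higher and 1 lower in WT granules with tetracycline, where 39.5% of all genes were higher and 36.2% lower, and 6 and 1 in WDM, where 35.8% and 35.3% were. With arsenite 1 was higher and 5 lower in WT, against 35.0% and 35.5% of all genes, and 0 and 6 in WDM, against 36.3% and 35.7%. The medians went from 0.58 and 0.47 to -0.14 and -0.23, whereas over all genes they were 0.07, 0.02, 0.05 and 0.06.

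**Figure D5:**
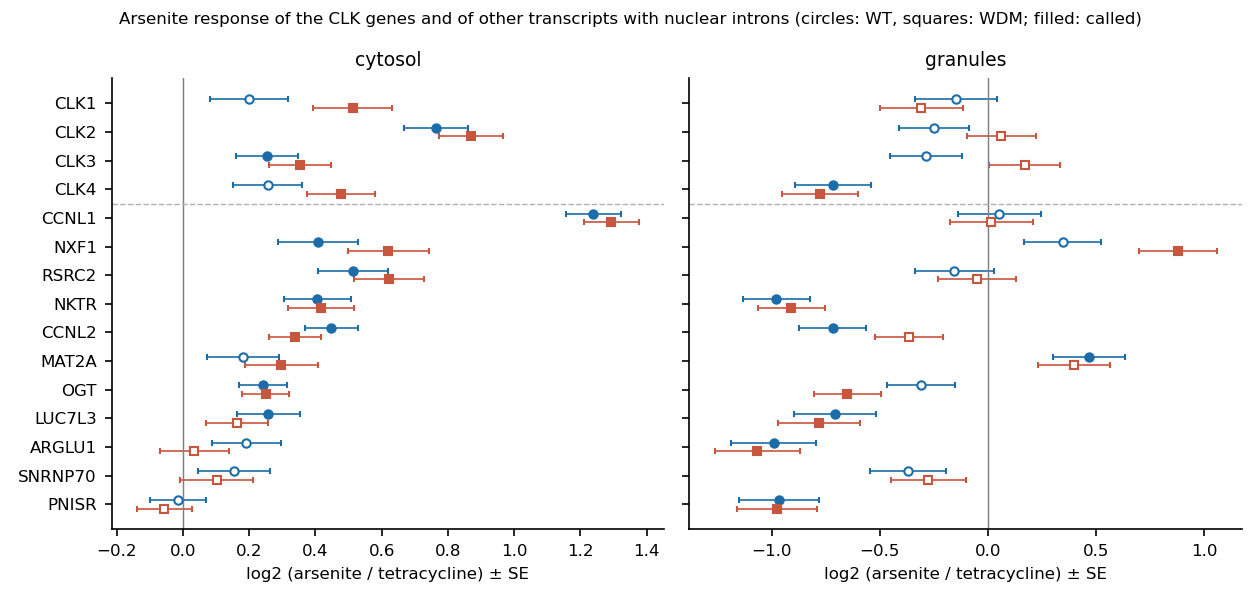
Log2 fold change ± SE of arsenite over tetracycline for the CLK genes (above the dashed line) and other transcripts of the list described with introns kept in the nucleus, in cytosol on the left and granules on the right; circles are WT, squares WDM, and filled symbols passed an adjusted p of 0.05. In cytosol no filled symbol lies below 0, and in granules CLK4 lies with NKTR, LUC7L3, ARGLU1 and PNISR at -0.71 or below.

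The mRNAs of the kinases' substrates were read beside the CLK genes. Of 14 genes for SR proteins and TRA2 factors, arsenite raised 1 and lowered 2 in WT cytosol and raised 2 and lowered 1 in WDM cytosol, or 3 called in each line, where 29% and 28.8% of all genes were called. The counts became 5 in each line under scaling by library size alone and 1 and 0 in fits of the compared groups alone. With a library left out they ran from 1 to 5 in WT, with 5 without tetracycline replicate 1, 2 without arsenite replicate 3 and 1 without any other, and from 1 to 4 in WDM, moving most without tetracycline replicate 2. SRSF1, at 1.23 CPM in WT and 0.877 in WDM cytosol with tetracycline, and SRSF6, at 9.02 and 5.34, are counted among the 14 at these low levels, and whether the counting lost reads of theirs was not tested. TRA2A rose in both lines (0.23, adjusted p = 0.0408, and 0.31, adjusted p = 0.0086) and SRSF9 fell in both (-0.34 in each). In granules the same treatment raised 1 and lowered 1 in WT and raised 1 and lowered 6 in WDM, where 30.6% and 36.3% of all genes were called and 14.1% and 17.7% were lower. In WDM 4 rather than 7 were called under library size alone or without the filter, and from 4 to 6 with a library left out, moving most without tetracycline replicate 2 or 3 or arsenite replicate 3. In WT the count of 2 ran from 1 to 3, moving most without tetracycline replicate 3 or arsenite replicate 1. SRSF8 was the gene that rose (1.29 and 0.91). Against cytosol the substrates were lower in granules for 10 of 14 genes in each line with tetracycline and for 12 and 11 with arsenite, where 36.2%, 35.3%, 35.5% and 35.7% of all genes were lower. The list's medians ran from -0.83 to -1.17, and SRSF3, SRSF7 and TRA2B stayed below the cytosol in all 4 comparisons. With 1 exception, SRSF11 with tetracycline (0.51 and 0.59), none was higher.

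The SRPK kinases phosphorylate SR proteins mainly in the cytoplasm. SRPK1 was not called in cytosol with arsenite (-0.08 and 0.01), nor was SRPK2 (0.37 and 0.35), and SRPK3 was too low to test. In granules arsenite lowered 0 of the 2 in WT and 1 in WDM and raised 0, where 14.1% and 17.7% of all genes were lower. The WDM call was lost without tetracycline replicate 2 or 3 or arsenite replicate 2 or 3. SRPK2 was enriched in granules in all 4 comparisons, from 0.99 to 1.66 on the log2 scale, and SRPK1 was lower there with arsenite (-0.39 in WT and -0.59 in WDM). Among 9 kinases related to the CLKs, arsenite raised 5 and lowered 0 in granules of each line, where 16.5% and 18.7% of all genes rose. HIPK1 (1.25 and 1.10), HIPK2 (0.87 and 1.18) and HIPK3 (1.12 and 0.79), nuclear kinases that act on transcription regulators, rose there in both lines, as did DYRK3 (0.84 and 0.51), a kinase that dissolves stress granules. In cytosol none of these 4 was called. There arsenite raised 2 and lowered 1 of the 9 in WT and raised 3 and lowered 0 in WDM, where 29% and 28.8% of all genes were called. DYRK4 rose in both lines (0.85, adjusted p = 0.00826, and 1.05, adjusted p = 0.00102), as did DYRK1A, which also phosphorylates splicing factors (0.24 and 0.34, adjusted p = 0.0447 and 0.00683). PRPF4B, a kinase of the spliceosome, rose in WDM (0.31, adjusted p = 0.00477), and DYRK2 fell in WT (-0.20, adjusted p = 0.0351). The WT count of 3 ran from 0 to 5 with a library left out, moving most without tetracycline replicate 1, 2 or 3 or arsenite replicate 2, and 1 was called in each line in fits of the compared groups alone. Against cytosol, 5 of the 9 were higher in granules of each line with tetracycline. With arsenite 7 were higher in WT and 5 in WDM, and 0 were lower in any of these. Of all genes, 39.5% and 35.8% were higher with tetracycline and 35.0% and 36.3% with arsenite.

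Genes whose profile over the 10 groups was most like that of each CLK were ranked by the root mean square difference of centred log2 CPM, among 11509 other genes with a mean of at least 5 CPM. The nearest to CLK1 were HELQ (0.105), ZNF350 (0.128) and ZNF140 (0.143), and CLK4 ranked 40 (0.191). The nearest to CLK4 were THOC1 (0.111), CENPT and STK11IP (both 0.12), and CLK1 ranked 74. CLK2 was nearest to RAD52 (0.103), SREK1 (0.126) and ZNF192P1 (0.134), and CLK3 to HROB (0.0725), TRABD (0.09) and DPH7 (0.0915). The ranks of all other pairs of CLK genes ran from 395 to 2414. The median gene differed by 0.571, 0.572, 0.516 and 0.6002 from CLK1, CLK2, CLK3 and CLK4. These are descriptions over 10 group means that share libraries and carry no test.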

How the data were processed

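The authors deposited raw read counts per gene, a table with a column for each of 30 libraries and no pooling. Per the labels' protocols, total RNA was depleted of rRNA (Ribo-Zero Gold) and made into TruSeq Stranded libraries. Trimmomatic, STAR, Picard, featureCounts and GRCh38 are named in the submitters' processing notes; the counted features and strand setting are not given in the sources used here. Groups and replicate numbers came from the sample titles.

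For the tests, edgeR 4.0.16 was run under R 4.3.3 (filterByExpr with a minimum count of 10 and a minimum total of 15, TMM factors, robust quasi-likelihood F-test, Benjamini-Hochberg adjustment). The 18 cytosol libraries (16670 genes), the 12 granule libraries (18366) and the 24 libraries of tetracycline-treated cells in both fractions (18141) were fitted separately. The 24 comparisons comprise 7 interactions, and the remaining 17 set 1 group against another. SE is the log2 fold change over the root of F. The cytosol fit was tested on simulated counts, for arsenite over tetracycline in WT alone, and the other fits were not. Total counts per library ran from 5906167 to 27419145.

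The members and lists were chosen with earlier results of these data known, and so no p is adjusted over a list alone. The CLK genes are named in each comparison and other genes as members of the lists or, in the likeness ranking, as the 3 nearest. Same-numbered libraries deviated together, with every correlation over 0.1, for granules against cytosol in WDM with arsenite (0.351, 0.568 and 0.311) and for arsenite against tetracycline in WDM granules (0.464, 0.108 and 0.236). In every other comparison of 1 group with another, at least 1 correlation was lower. For granules against cytosol in WT with arsenite (0.0605, 0.201 and 0.232) each library still correlated best with its same-numbered partner. The main fits did not pair libraries in any comparison. The results were recomputed with RLE factors, with library size alone, without the filter, with the replicate number as a block, with DESeq2 1.42.0, in a fit of the compared groups alone and with each library left out. 1 listed gene enters the counts of its list and is otherwise not reported here. Gene models were from GENCODE v44 on GRCh38, where 60463 of 60664 identifiers were found, all on the same chromosome. Start and end were identical for 56693. Sequences were read from the GRCh38 genome, and identities come from pairwise alignment with Biopython 1.88.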

Additional observations from a re-analysis of the deposited data

Results flagged for a closer look

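The ratio of granules to cytosol changed with arsenite by a direct test of that change (edgeR's quasi-likelihood interaction test, adjusted over all genes) for 6 of the 8 combinations of CLK gene and line. Of all genes, 31.4% were called by the same test in WT and 24.1% in WDM, with 19.4% and 16.5% lower. The median change of all genes was -0.21 and -0.17. In WT the log2 change was -1.12 for CLK2, -0.65 for CLK3 and -1.09 for CLK4. In WDM it was -0.90 for CLK1, -0.90 for CLK2 and -1.34 for CLK4. The remaining values, -0.46 for CLK1 in WT and -0.27 for CLK3 in WDM, were not called. Whether the change itself differs between the lines was not tested, so the members called in 1 line alone are not shown to differ from the other line.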

How the results depend on the processing

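Of 96 results for single CLK genes, 31 were called, 19 of these were called in every alternative and 12 were lost in at least 1. Of those not called, 10 passed in at least 1 alternative. The number of CLK genes called over tetracycline in WT cytosol with arsenite went from 2 to 4 under library size alone, and from 4 to 2 in WDM in a fit of the compared groups alone. For tetracycline over untreated WT cytosol it went from 1 to 2 without the filter, with the replicate block and with DESeq2, and to 0 in the fit of the compared groups. For WT granules over cytosol with tetracycline it became 2 under library size alone. With a library left out, the counts ran from 1 to 2 for arsenite in WDM granules, 1 to 1 (against 2) for arsenite in WT cytosol, 1 to 2 for WT granules over cytosol with tetracycline, 0 to 1 for tetracycline in WT, and 0 to 1 for WDM over WT in cytosol with tetracycline, in cytosol with arsenite and in granules with arsenite. The replicate block, an effect of the replicate number common to all libraries of a fit, passed CLK2 in WDM granules over cytosol with arsenite (-0.27). It changed no other call there or for arsenite in WDM granules, where same-numbered libraries deviated together. In the remaining comparisons it passed CLK1 with tetracycline in WT (0.40) and CLK3 with arsenite over untreated WDM cytosol (0.19). The cause of these moves was not tested.

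Signs turned for values that were not called. CLK2 in WDM over WT with tetracycline became 0.0365 under library size alone and 0.0028 without the filter. CLK1 in WDM granules over cytosol with tetracycline became 0.0229 with RLE factors, 0.0232 with DESeq2, 0.00114 under library size alone and 0.00763 in the fit of the compared groups. Under library size alone CLK4 became 0.0309 for the line difference of the granule response and CLK2 became 0.0314 for that of enrichment with arsenite. Without the filter the line difference of enrichment with tetracycline became 0.00894 for CLK3 and 0.0146 for CLK4. With a library left out, CLK1 ran from -0.069 to 0.074 (WDM granules over cytosol, tetracycline), -0.27 to 0.0159 (the same in WT), -0.0228 to 0.27 (line difference of enrichment, tetracycline), -0.37 to 0.0316 (line difference of the granule response) and -0.0757 to 0.0919 (tetracycline, WDM). CLK2 ran from -0.0349 to 0.13 (arsenite, WDM granules), -0.13 to 0.0594 (line difference of enrichment, arsenite), -0.0531 to 0.14 (WDM over WT granules, arsenite) and -0.11 to 0.0344 (WDM over WT cytosol, tetracycline). CLK3 ran from -0.25 to 0.0048 (WT granules over cytosol, tetracycline), -0.18 to 0.0781 (line difference of enrichment, tetracycline), -0.12 to 0.022 (tetracycline, WT), -0.16 to 0.0217 and -0.0377 to 0.0776 (WDM over WT cytosol, tetracycline and untreated). CLK4 ran from -0.22 to 0.11 (line difference of enrichment, tetracycline), -0.19 to 0.0595 (line difference of the granule response), -0.18 to 0.051 and -0.0561 to 0.0499 (WDM over WT cytosol, arsenite and untreated).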
